A study of Homo sapiens with 2 samples.

Results

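The miR-15/16 family of microRNAs, with miR-195, miR-424, miR-497 and miR-503, is cut from 8 hairpins that lie in 4 pairs in the human genome. Its members were followed here in hCMEC/D3, a line derived from 1 clone of human brain microvascular endothelial cells that was immortalised with telomerase and a viral large T antigen and serves to model the blood-brain barrier. The members are all table rows whose hairpin is hsa-mir-15a, hsa-mir-16-1, hsa-mir-15b, hsa-mir-16-2, hsa-mir-195, hsa-mir-497, hsa-mir-424 or hsa-mir-503, with both arms (the species prefix is left out below). These were 16 of the 2363 rows, and 8 of the 1600 hairpins. They carry 15 different mature names, because miR-16-5p is listed under both mir-16-1 and mir-16-2. Small RNA was sequenced from 2 libraries of the line, replicate 2 and replicate 8, with no treatment named, and there was no second group. Nothing in the labels says whether these came from separate cultures. Tests therefore compare 2 libraries, not conditions, and cover counting error only. Reads without molecular identifiers are not independent molecules, so p-values may be too small and intervals too narrow. With 1 row kept per mature name, the libraries held 2721287 and 2727675 counts. Levels are given as CPM, the count scaled to a fixed sum over these totals.

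MicroRNAs guide Argonaute proteins to messenger RNAs, mainly by pairing of the seed, the bases near their 5′ end. A hairpin is cut into a 5p and a 3p arm, and usually one of them is kept as the guide while the other is degraded. The family is known for lowering G1 cyclins, cyclin-dependent kinases and other cell cycle regulators. The mir-15a/16-1 pair is deleted in many chronic lymphocytic leukaemias and restrains BCL2, and miR-424 and miR-503 are known to act on angiogenic signalling in endothelial cells.

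The 5p arms are shown first because they define the family, with the seed (bases 2 to 8) in capitals. Sequences are those of RefSeq, whose table held all 8 hairpins.
miR-16-5p: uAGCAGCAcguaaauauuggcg
miR-195-5p: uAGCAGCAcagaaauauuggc
miR-15a-5p: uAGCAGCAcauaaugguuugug
miR-15b-5p: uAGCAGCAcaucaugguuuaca
miR-497-5p: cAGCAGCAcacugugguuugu
miR-424-5p: cAGCAGCAauucauguuuugaa
miR-503-5p: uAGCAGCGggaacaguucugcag
The first 6 of these names share the seed AGCAGCA, and no other name of the table with a RefSeq sequence has it. The seed of miR-503-5p is AGCAGCG, which keeps the first 6 bases and differs at base 8. Counted from base 1 at the 5′ end, miR-16-5p and miR-195-5p differ over 21 bases only by G10A and U11G, with the base of miR-16-5p given first. miR-15a-5p and miR-15b-5p differ by A12C, G20A, U21C and G22A. Each other pair of 5p arms differed at 4 to 11 positions.

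The 3p arms matter below because several of them were abundant, and they do not form a single family. Their seeds are in capitals.
miR-16-1-3p: cCAGUAUUaacugugcugcuga
miR-16-2-3p: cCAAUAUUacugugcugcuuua
miR-195-3p: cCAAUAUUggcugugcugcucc
miR-424-3p: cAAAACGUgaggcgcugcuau
miR-497-3p: cAAACCACacugugguguuaga
miR-16-2-3p and miR-195-3p share the seed CAAUAUU, which no other name with a RefSeq sequence has. The remaining 3p seeds each occur in 1 name only. The 5 bases GCUGC, which can pair with GCAGC in the 5p seed, occur in 7 of the 8 member 3p names, the exception being miR-497-3p. They occur in 2.91% of the 1716 names of the table with a RefSeq sequence. The 5p seed defines the family and hairpin arms pair with each other, so this difference follows largely from that definition.

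The 4 pairs were placed on GRCh37, the genome build named hg19 in the submitters' processing notes, by exact match of the hairpins, and each hairpin matched at 1 place. mir-15a lies on chromosome 13 at 50623255 to 50623337 and mir-16-1 at 50623109 to 50623197, both on the minus strand, 57 bases apart. Both are inside introns of the lncRNA DLEU2, where none of 15 spanning transcripts has an exon. mir-15b lies on chromosome 3 at 160122376 to 160122473 and mir-16-2 at 160122533 to 160122613, on the plus strand, 59 bases apart. They are in introns of SMC4, a condensin subunit needed for mitotic chromosome packing, in all 13 spanning transcripts, and an unnamed gene model on the opposite strand spans both without an exon there. mir-497 lies on chromosome 17 at 6921230 to 6921341 and mir-195 at 6920934 to 6921020, on the minus strand, 209 bases apart. Of 2 MIR497HG transcripts that span each of them, 1 has an exon there, and an unnamed lncRNA spans both within an intron. mir-424 lies on chromosome X at 133680644 to 133680741 and mir-503 at 133680358 to 133680428, on the minus strand, 215 bases apart. mir-503 is intronic in 3 transcripts of the lncRNA MIR503HG, and no annotated transcript of another gene spans mir-424.

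**Figure D1:**
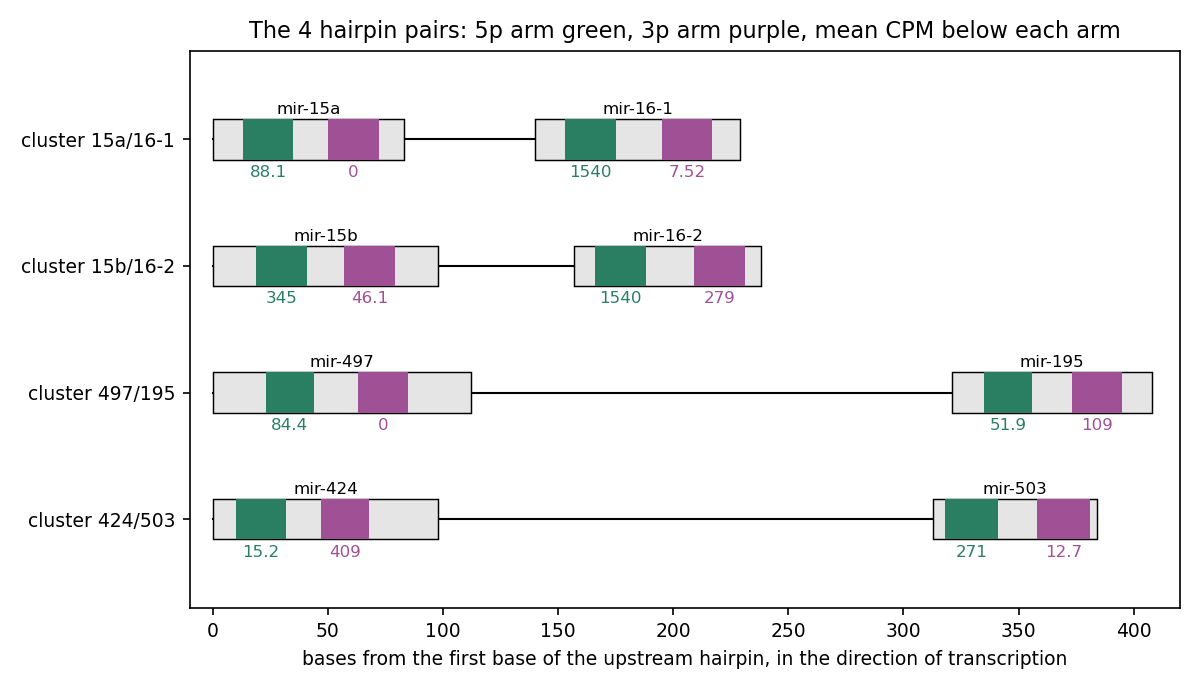
Map of the 4 hairpin pairs in bases from the first base of the upstream hairpin, with 5p arms in green, 3p arms in purple and the mean CPM of the 2 libraries under each arm. The 1540 CPM of miR-16-5p are written under both mir-16 hairpins, whose rows held nearly the same counts. Below mir-424 the 3p value (409 CPM) exceeds the 5p value (15.2 CPM), while below mir-503 the 5p value (271 CPM) exceeds the 3p value (12.7 CPM).

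The family as a whole was a small part of the miRNA content. Its 15 names held 9050 counts in replicate 2, or 0.333% of the total (95% Wilson interval 0.326 to 0.339), and 8709 counts in replicate 8, or 0.319% (0.313 to 0.326). The mean share was 0.326% ± 0.00939 (SD, n = 2). Of the 15 names, 13 reached 10 counts in each library and were called detected, where 26.6% of all 2042 names were. At least 100 counts in both were held by 10 names, and the share of all names at that cut is not given here. The names with the seed AGCAGCA held 65.3% of the family counts in replicate 2 and 65.1% in replicate 8. All 3p arms together held 26.5% in either library.

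miR-16-5p, the most abundant member, had 4144 counts (replicate 2) and 4248 (replicate 8), which is 1540 ± 24.4 CPM (SD, n = 2). It ranked 69 among the 2042 names by mean CPM and held 47.3% ± 2.11 of the family counts. By Euclidean distance on log2(CPM + 1) over the 2 libraries, the names closest to it were miR-146b-5p (1572 ± 90.05 CPM), miR-139-5p (1544 ± 113 CPM) and miR-151a-5p (1487 ± 70.5 CPM). With 2 libraries of 1 line this distance says only that the levels were near each other.

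The next member was a 3p arm. miR-424-3p had 1157 and 1072 counts, at 409 ± 22.7 CPM (SD, n = 2), and was above every 5p arm other than miR-16-5p in both libraries. miR-15b-5p followed with 996 and 886 counts, at 345 ± 29.1 CPM, and its values did not overlap those of miR-424-3p. miR-16-2-3p had 789 and 731 counts (279 ± 15.5 CPM) and miR-503-5p had 739 and 736 (271 ± 1.23 CPM). The order of these last names changed between the libraries, so they were not separated beyond their spread. Across different miRNAs the order is one of reads, since ligation captures small RNAs unequally.

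The lower members were close to each other. miR-195-3p had 281 and 313 counts, at 109 ± 8.12 CPM (SD, n = 2), and was above its own 5p arm. miR-15a-5p had 277 and 203 counts (88.1 ± 19.4 CPM), and miR-497-5p had 283 and 177 (84.4 ± 27.7 CPM). Both fell from about the level of miR-195-3p in replicate 2 to below it in replicate 8, and their order to each other changed. miR-195-5p had 159 and 124 counts (51.9 ± 9.17 CPM) and overlapped miR-15b-3p, with 120 and 131 counts (46.1 ± 2.78 CPM).

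At the bottom, miR-424-5p had 54 and 29 counts, at 15.2 ± 6.51 CPM (SD, n = 2), and was the lowest of the 7 5p arms in both libraries. Its values overlapped those of miR-503-3p, with 31 and 38 counts (12.7 ± 1.80 CPM). miR-16-1-3p had 20 and 21 counts (7.52 ± 0.247 CPM). miR-15a-3p and miR-497-3p had no count in either library, which allows up to 1.10 CPM.

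**Figure D2:**
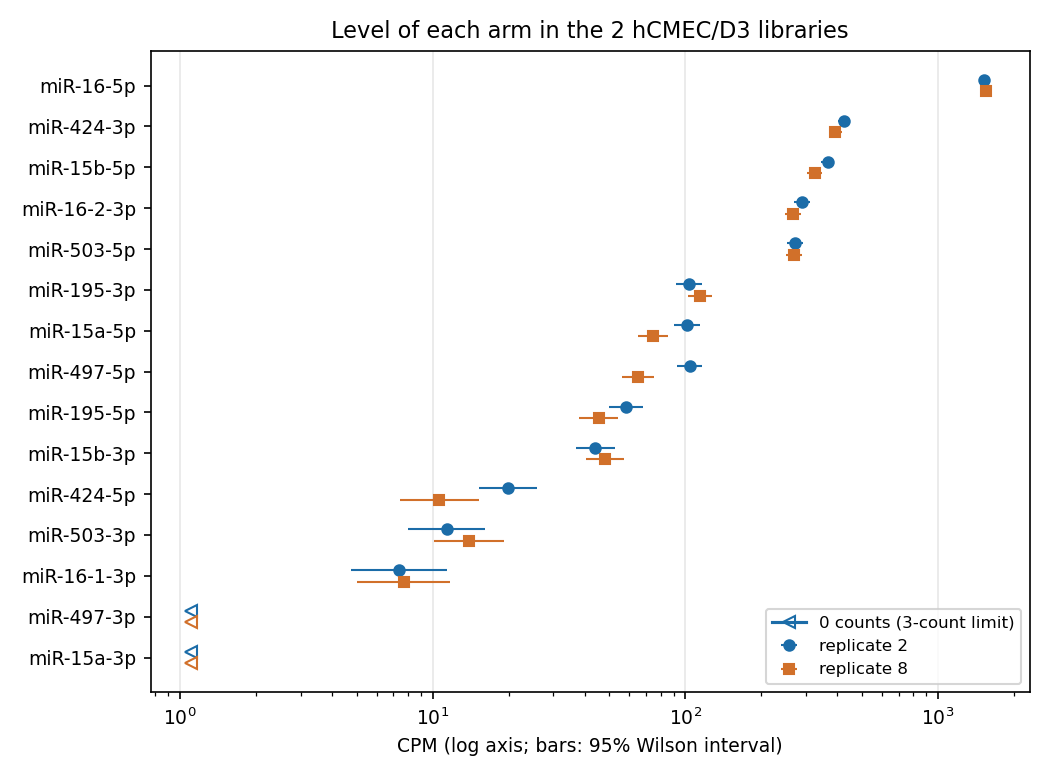
Level of the 15 mature names on a log axis of CPM, with a circle for replicate 2, a square for replicate 8 and bars for the 95% Wilson interval of counting error. miR-16-5p stands apart at 1523 and 1557 CPM, miR-424-3p comes next, and the open triangles at 1.10 CPM mark the limit for the 2 names with no count.

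miR-16 is made from 2 loci, and the 5p arm alone cannot assign its reads. The 22 bases of miR-16-5p matched GRCh37 at 2 places, 1 in each mir-16 hairpin, whereas every other member matched at 1. The table listed 4146 and 4242 counts for miR-16-5p at mir-16-1 and 4144 and 4248 at mir-16-2, rows that differed by 2 counts in replicate 2 and 6 in replicate 8. Whether the same reads were listed at both hairpins or shared out between them was not tested. Only the mir-16-2 row was used, which gives 1540 CPM, and with repeated rows summed the level was 2637 CPM. The hairpins are shown with both arms in capitals to compare the 3p arms.
mir-16-1: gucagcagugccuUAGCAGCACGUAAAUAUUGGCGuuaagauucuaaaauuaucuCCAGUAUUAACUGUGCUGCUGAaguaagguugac
mir-16-2: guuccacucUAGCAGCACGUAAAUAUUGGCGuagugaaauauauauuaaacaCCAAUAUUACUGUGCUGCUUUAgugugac
Aligned at their first base without gaps, the 3p arms differ at 12 of 22 positions. Much of this comes from a shift, since both hold the run CUGUGCUGCU, which starts 1 base later in mir-16-1. The arms are thus more alike than that count shows. The mir-16-2 arm had 789 of 809 3p counts in replicate 2, a share of 97.5% (95% Wilson interval 96.2 to 98.4). In replicate 8 it had 731 of 752, a share of 97.2% (95.8 to 98.2). The shares did not differ between the libraries beyond counting error (two-sided Fisher's exact test, p = 0.753). The 3p counts for mir-16-2 were thus 39.5 and 34.8 times those for mir-16-1. These are reads of 2 different sequences, so the output of each locus was not measured.

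The read counts of the other products of the 2 loci were in the same order, with a smaller ratio between the 5p arms. Whether the loci differ in output was not tested. miR-15b-5p, from the hairpin beside mir-16-2, exceeded miR-15a-5p, from the hairpin beside mir-16-1, by 3.60 times in replicate 2 (95% exact interval 3.14 to 4.12) and by 4.36 times in replicate 8 (3.74 to 5.11). For the 3p arms miR-15b-3p had 120 and 131 counts and miR-15a-3p had none. Without miR-16-5p, the arms of the chromosome 3 pair summed to 1905 and 1748 counts and those of the chromosome 13 pair to 297 and 224.

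The counts of the 8 hairpins were split very differently between their arms. These splits are of reads, since the arms differ in sequence and ligation captures small RNAs unequally. In 4 hairpins more than 90% of each library's counts came from the 5p arm: mir-15a, mir-16-1, mir-497 and mir-503. The same was true of 44.6% of 202 hairpins with enough counts. The 3p arm held over 90% in 1 hairpin, mir-424, against 25.2% of those 202. The other 3, mir-15b, mir-16-2 and mir-195, had no arm above 90% in both libraries. The 5p shares of mir-16-1 and mir-16-2 use the count listed at each hairpin for a 5p arm that they have in common, so they are not specific to the locus.

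mir-424 and mir-503 are shown with both arms in capitals because opposite arms held most of the counts in these neighbouring hairpins.
mir-424: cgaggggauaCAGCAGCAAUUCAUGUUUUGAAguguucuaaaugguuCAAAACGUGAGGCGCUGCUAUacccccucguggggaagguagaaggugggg
mir-503: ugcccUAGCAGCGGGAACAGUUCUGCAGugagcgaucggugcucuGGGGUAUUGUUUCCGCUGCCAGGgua
In mir-424 the 3p arm held 1157 of 1211 counts in replicate 2, or 95.5% (95% Wilson interval 94.2 to 96.6), and 1072 of 1101 in replicate 8, or 97.4% (96.2 to 98.2). It thus exceeded the 5p arm, which carries the family seed, by 21.43 and 36.97 times. In mir-503 the 3p arm held 4.03% (2.85 to 5.66) and 4.91% (3.60 to 6.67). The 5p arm of mir-503 was 13.7 times as abundant as that of mir-424 in replicate 2 (95% exact interval 10.4 to 18.4) and 25.4 times in replicate 8 (17.5 to 38.2). The more abundant arms of the pair were nearer, with miR-424-3p at 1.57 and 1.46 times the counts of miR-503-5p.

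mir-195 also had more 3p than 5p counts, as 42.6% of the 202 hairpins did. Its 3p arm held 281 of 440 counts in replicate 2, or 63.9% (95% Wilson interval 59.3 to 68.2), and 313 of 437 in replicate 8, or 71.6% (67.2 to 75.6). Its neighbour mir-497 had 283 and 177 counts for the 5p arm and none for the 3p arm, which allows a 3p share of up to 1.06% and 1.69%. Between the 5p arms, miR-497-5p had 1.78 times the counts of miR-195-5p in replicate 2 (95% exact interval 1.46 to 2.18) and 1.43 times in replicate 8 (1.13 to 1.81). Since miR-195-5p is only 2 bases from miR-16-5p, its counts were also set against that name: they were 3.84% of the miR-16-5p count in replicate 2 and 2.92% in replicate 8. The source notes do not say how mismatches were treated, so how many of these are miR-16-5p reads was not tested.

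The remaining hairpins lay between. In mir-15b the 3p arm held 10.8% and 12.9%, and in mir-16-2 it held 15.99% and 14.68% of the counts. In mir-16-1 it held 0.480% and 0.493%. mir-15a had no 3p count beside 277 and 203 5p counts, which allows up to 1.08% and 1.48%. Arm balance was compared between the libraries by Fisher's exact test with Benjamini-Hochberg adjustment over the 202 hairpins, of which 19.8% differed. None of the 8 member hairpins passed, and 2, mir-195 and mir-424, had an unadjusted p under 0.05. Since adjustment never lowers p, at least 19.8% of the 202 hairpins had one as well. The exact adjusted p was 0.0684 for mir-195 and 0.0887 for mir-424, with a higher 3p share in replicate 8 in both.

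**Figure D3:**
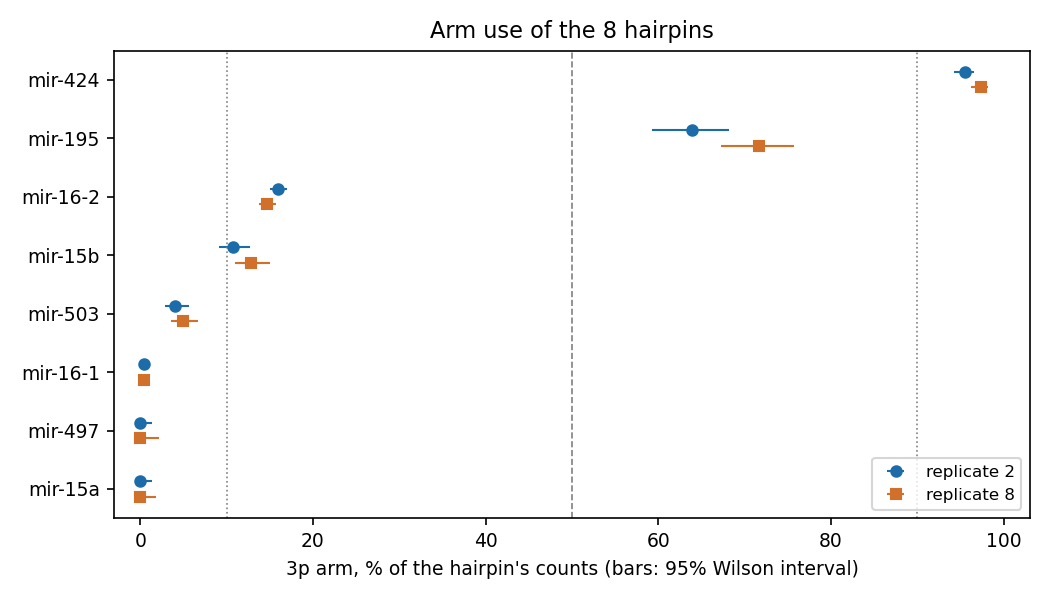
Share of the 3p arm in the counts of each hairpin, in percent, with a circle for replicate 2, a square for replicate 8 and bars for the 95% Wilson interval. The dashed line marks equal arms and the dotted lines 10% and 90%. mir-424 lies at 95.5% and 97.4%, mir-195 at 63.9% and 71.6%, and the other 6 hairpins lie under 20%.

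Between the libraries, 4 of the 13 member names with at least 10 summed counts were lower in replicate 8 and none was higher. They were miR-497-5p, miR-15a-5p, miR-424-5p and miR-15b-5p, all 5p arms with the seed AGCAGCA. By the same two-sided exact binomial test, 34.2% of all 695 names tested differed, with 10.8% higher and 23.5% lower in replicate 8. A member count of 4 of 13 is close to that background. The median log2 ratio of replicate 8 over replicate 2 was -0.11 both for the 13 members and for all 695 names. The median size of the log2 ratio, without its sign, was 0.15 for the members and 0.33 for all names. For the 411 names within the members' range of CPM it was 0.29, and 162 of them differed by that test. No member differed more than 2-fold, as 13.4% of all names did, and 28 of those 411.

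miR-497-5p went from 104 CPM in replicate 2 to 64.9 CPM in replicate 8, a log2 ratio of -0.68 (95% exact interval -0.96 to -0.40, exact binomial adjusted p = 5.04e-06). miR-15a-5p went from 102 to 74.4 CPM, a log2 ratio of -0.45 (interval -0.72 to -0.19, adjusted p = 0.00304 by that exact test). miR-424-5p went from 19.8 to 10.6 CPM, a log2 ratio of -0.89 (interval -1.60 to -0.22, adjusted p = 0.0196 by that exact test). These 3 also passed with TMM-scaled library sizes and with DESeq2 size factors, with adjusted p-values of 1.26e-04, 0.0277 and 0.0474 under TMM by the exact binomial test. miR-15b-5p went from 366 to 325 CPM, a log2 ratio of -0.17 (interval -0.30 to -0.04, adjusted p = 0.0309 by that exact test), and did not pass under either scaling (adjusted p = 0.446 and 0.477).

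miR-16-5p, the main member, was at 1523 and 1557 CPM, a log2 ratio of 0.03 (95% exact interval -0.03 to 0.09, exact binomial adjusted p = 0.480). Its call depended on the scaling: TMM sizes raise every log2 ratio by 0.10 and DESeq2 size factors also by 0.10, and with TMM miR-16-5p had a log2 ratio of 0.13 and an exact binomial adjusted p of 1.96e-04. Under either scaling 4 members therefore passed, 1 higher and 3 lower, where 32.7% (TMM) and 32.2% (DESeq2) of all names did. Of all names 111 were higher and 116 lower with TMM, and 111 higher and 113 lower with DESeq2, against 75 and 163 with total counts. miR-503-5p had a log2 ratio of -0.01 (-0.16 to 0.14) with total counts and 0.09 with TMM sizes, and passed in neither. miR-195-5p, at -0.36 (interval -0.71 to -0.01, adjusted p = 0.0962 by that exact test), did not pass either. None of the 6 3p arms tested passed, with log2 ratios from -0.11 for miR-16-2-3p and miR-424-3p to 0.29 for miR-503-3p.

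**Figure D4:**
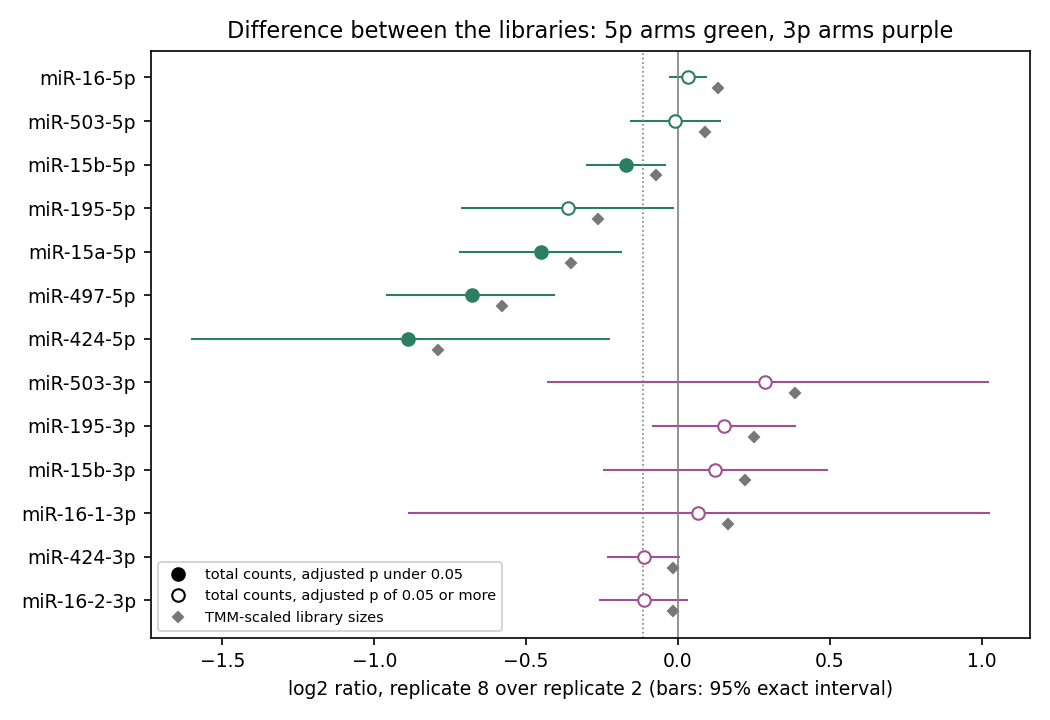
Log2 ratio of replicate 8 over replicate 2 for the 13 member names tested, with 5p arms in green, 3p arms in purple, 95% exact intervals as bars and filled circles for an adjusted p under 0.05. Grey diamonds give the ratio with TMM-scaled sizes and the dotted line the median of all names, -0.11. The 4 filled circles lie at -0.17 to -0.89.

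Of 19 miRNAs known from other cell types, 12 had enough counts to test, and 9 were lower and none higher in replicate 8 by the exact binomial test. Under TMM scaling 9 were lower and 1 higher, and under DESeq2 scaling 8 were lower and 1 higher. Over all 695 names tested, 23.5% were lower and 10.8% higher with total counts. Some of the 9 rest on few counts: miR-200a-3p (29 and 3), miR-205-5p (15 and 0) and miR-429 (13 and 0) had under 10 in replicate 8. miR-126-3p, the classical endothelial miRNA, ranked 1 with 112226 ± 4003 CPM (SD, n = 2). From replicate 2 to replicate 8 the sum over 2 mural miRNAs (miR-143-3p and miR-145-5p) went from 835 to 393 CPM. The sum over 6 epithelial miRNAs went from 92.2 to 42.2 CPM, that over 4 red blood cell miRNAs from 325 to 214 CPM and that over 4 white blood cell miRNAs from 229 to 185 CPM. The neuronal pair went from 44.1 to 34.1 CPM and the liver miRNA miR-122-5p from 235 to 252 CPM. Of these lists, 2 of 2 mural, 2 of 6 epithelial, 2 of 4 red blood cell, 1 of 4 white blood cell, 1 of 2 neuronal and 1 of 1 liver miRNAs were detected in both libraries. miR-144-3p, miR-144-5p, miR-142-3p, miR-223-3p and miR-141-3p had no count. Their part in the lower levels of the 4 members in replicate 8 was not tested.

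The relatives outside the family that had counts share 6 bases with it, shifted by 1 position. The capitals mark AGCAGC, at bases 1 to 6 here and at bases 2 to 7 in the family.
miR-103a-3p: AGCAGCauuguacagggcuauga
miR-107: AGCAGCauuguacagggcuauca
miR-103a-3p had 34783 and 33662 counts, at 12561 ± 312 CPM (SD, n = 2), and miR-107 had 2554 and 2275, at 886 ± 73.9 CPM. The former was therefore above every member in both libraries, and the latter above every member except miR-16-5p. Over 23 bases they differ only by G22C, with the base of miR-103a-3p first, so reads may be shared. miR-646, with the same 6 bases at positions 2 to 7, had no count.

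A list of 26 other miRNAs known to act on cell cycle regulators, those relatives among them, was far more abundant than the family. It summed to 176987 CPM in replicate 2 and 198495 CPM in replicate 8, with 23 of 26 detected. The most abundant were let-7i-5p (30087 ± 5804 CPM), miR-24-3p (28917 ± 2045 CPM), let-7b-5p (24621 ± 504 CPM) and miR-26a-5p (18637 ± 705 CPM). Of 24 with enough counts, 17 differed between the libraries by the exact binomial test, 11 higher and 6 lower in replicate 8, where 34.2% of all names differed. The median log2 ratio of the 24 was 0.05, and without its sign 0.15, against 0.33 for all names. The list is not matched to all names by level: its median was 2272 CPM in replicate 2 and 1993 CPM in replicate 8. At high counts the test passes small ratios, such as -0.04 for let-7b-5p, so the 2 shares cannot be compared directly. The split moved with the scaling: under TMM and under DESeq2 scaling 17 differed as well, 16 higher and 1 lower in each, with a median of 0.15. The p53 target miR-34a-5p, which shares cyclin and kinase targets with the family, had 114 and 178 counts, at 53.6 ± 16.5 CPM. Only its mean was near that of miR-195-5p. From replicate 2 to replicate 8 miR-34a-5p went from 41.9 to 65.3 CPM (exact binomial adjusted p = 0.00103). miR-195-5p went from 58.4 to 45.5 CPM and did not pass that test. miR-34a-5p was picked after its values were seen. Of the same list, miR-34c-5p went from 18.7 to 12.1 CPM without passing, and miR-34b-5p had no count.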

How the data were processed

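The authors deposited raw counts per pair of mature name and hairpin, and RPM values, which per the file header and values are the counts divided by 1 constant per library (about 3180044 and 3205752). The submitters' processing notes name hg19, CASAVA 1.9, FastQC, cutadapt and Bowtie 0.12.7 without their roles. The counter and the handling of reads that match several hairpins are not given in the sources used here.

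Where a name had several rows, only its largest by mean count was kept. CPM used these totals. Libraries were compared by two-sided exact binomial tests (SciPy 1.17.1) over all 695 names with at least 10 summed counts, with Benjamini-Hochberg adjustment at 0.05, and ratios had 0.5 counts added. Arm balance used Fisher's exact test over 202 hairpins with at least 50 counts in each library. TMM sizes (edgeR 4.0.16) and DESeq2 1.42.0 size factors were alternatives. With 1 group, no quasi-likelihood test was possible. Scripts were tested on simulated data. The libraries differed beyond counting noise (chi-square 60.5 per degree of freedom), so they were not copies of 1 library. None of the 13 member names with a count had the counts of another name.

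Named were all member rows, names sharing AGCAGC in bases 1 to 7, the 3 names nearest to the top member, and the 4 most abundant of the cell cycle list. miR-34a-5p was named after its values were seen. Members and lists were chosen with earlier results of these data known.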

Additional observations from a re-analysis of the deposited data

How the results depend on the processing

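The number of members that differed between the libraries was 3 or 4 under all alternatives tried, although miR-15b-5p left and miR-16-5p entered under TMM and DESeq2 scaling. Their median log2 ratio ran from -0.12 to -0.01. With at least 100 summed counts miR-424-5p was not tested. The family share was 0.411% with repeated rows summed and 0.278% on the deposited RPM scale, and miR-16-5p was at 2637 CPM and 1314 RPM. The first setting adds the rows of both mir-16 hairpins, and the second divides by a larger constant than the totals used here. With dominance set at 80%, 6 of 8 hairpins had a dominant 5p arm. With at least 500 counts over both arms, 5 hairpins were left and 2 had a dominant 5p arm. Without the mir-16 hairpins, an alternative chosen after seeing the data, 3 of 6 did. No share over all hairpins is given for these settings, so such counts do not set the family apart. Leaving out each library gave 0.319 to 0.333% for the family, 1523 to 1557 CPM for miR-16-5p, 97.2 to 97.5% for the mir-16-2 share and 4 hairpins with a dominant 5p arm, ranges that are the single-library values. No paired analysis was possible because there is 1 group only.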

Other observations

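The 5 lower names with the seed AGCAGCA, which are miR-15a-5p, miR-15b-5p, miR-195-5p, miR-424-5p and miR-497-5p, were each lower in replicate 8, with log2 ratios from -0.89 to -0.17 and a median of -0.45. With TMM sizes they were still all lower, from -0.79 to -0.07. The sum of their counts went from 1769 to 1419, and their share of the family from 19.5% to 16.3%. Over all 695 names 61.2% had a ratio under 0 with total counts and 51.4% with TMM sizes. The 6 tested 3p arms had a median log2 ratio of 0.09, with 2 under 0. This grouping was made after the values were seen and was not tested. The names of the seed CAAUAUU, miR-16-2-3p and miR-195-3p, summed to 1070 and 1044 counts, or 11.8% and 12.0% of the family.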
